A study of Homo sapiens with 4 samples.

Results

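The untreated (Control) library of BEAS-2B cells was read as an inventory of the genes with and without counts at rest. All 13219 of 24424 listed gene symbols (54.1%) with at least 16 counts were taken as its members. BEAS-2B is an established cell line derived from human bronchial epithelium by immortalization with a hybrid adenovirus carrying SV40 genes, and it was grown here in serum-free bronchial medium (BEBM with the BEGM kit). The series held 4 libraries of these wild type cells, with 1 library per group: Control (no treatment), LPS for 2 h, and 24 h of either WT PDZ or mut PDZ peptide with LPS added afterwards for 2 h. PDZ is a peptide built on the tight junction protein ZO-1, and LPS is the lipopolysaccharide of Gram-negative bacteria. The Control group was 1 library of 1 line without replicates, so no contrast was made, no p-value was computed and no spread between cultures is known. Bulk RNA was measured, so fewer cells with a transcript and less of it per cell cannot be told apart.

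The Control library held 24823347 counts, and the other 3 libraries held between 19682929 and 25155647. Levels of a gene are given as counts and as counts per 1000000 of the library total (CPM), with an exact binomial (Clopper-Pearson) 95% interval that covers counting error only. Levels of different genes can be compared only as TPM (transcripts per 1000000), that is, counts per kilobase of transcript scaled to a sum of 1000000. The longest protein-coding transcript was used, or the longest of any type where a gene had no protein-coding one. Counts of different genes printed side by side are not corrected for length. On these scales 16 counts equal 0.645 CPM, and a count of 0 allows a level of up to 0.121 CPM when 3 counts are taken as the floor, or 0.149 CPM at the upper end of the exact interval. Of the 13219 symbols, 12565 (95.1%) also had at least 16 counts in each of the other 3 libraries. Of the 7263 symbols with 0 counts in Control, 25 reached 16 counts in another library and 5530 had 0 counts in all 4. Reads of overlapping or copied genes can be assigned to another symbol, so a listed 0 is reported as a listing and not as absence of a transcript. Genes of the region shared by the X and Y chromosomes were listed at 0 as well, and whether mapping or counting lost them was not tested.

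The airway surface is built from basal cells, which are the stem cells of the layer, and from club, goblet and ciliated cells that differentiate from them. Epithelial cells are held together by E-cadherin and tight junctions and filled with keratin filaments, while mesenchymal cells carry vimentin and secrete a collagen matrix. The airway epithelium also senses microbes through Toll-like and cytosolic receptors and answers by secreting mucus, antimicrobial proteins and chemokines.

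The counts spread over a wide range of levels. Of all symbols, 3942 had 1 to 15 counts, 2201 had 16 to 99, 5249 had at least 100 but under 1000, 5406 had at least 1000 but under 10000 and 363 had 10000 or more. The median of the 13219 symbols was 784 counts, or 31.6 CPM. The 11205 symbols under the minimum held 18763 counts, only 0.0756% of the total. At the edge of the minimum, 75 symbols had 15 counts and 70 had 16. The 10 highest symbols took 3.97% of the counts, the 100 highest 15.7% and the 1000 highest 47.7%. Many genes shared the reads, since 50% of the counts fell on 1120 symbols and 90% on 5885. Protein-coding symbols made up 12190 of the members and 98.3% of all counts. Of 2921 long non-coding RNA symbols 546 were members, and of 362 small nucleolar RNA symbols 0 were, in a library made from poly(A)-selected RNA.

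**Figure D1:**
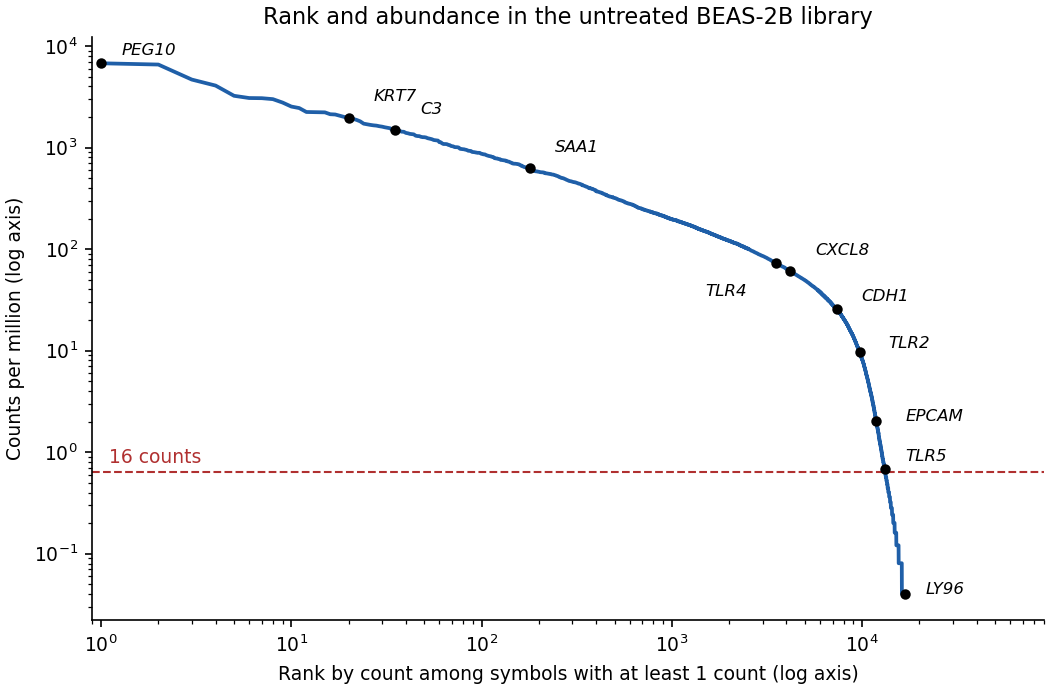
CPM (log axis) of every symbol with at least 1 count against its rank (log axis) in the Control library, with 11 genes marked as points and 16 counts as a dashed line. PEG10 stood at the top with 6755 CPM, TLR4 at 73.2 CPM and EPCAM at 2.05 CPM, and the curve fell steeply below about 10 CPM.

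PEG10, a paternally expressed gene derived from a retrotransposon, had the most counts of all, with 167692 (6755 CPM, interval 6723 to 6788). Behind it came EEF1A1, a translation elongation factor, with 162910 counts, and the cytoplasmic actins ACTB and ACTG1 with 115859 and 101098. The chaperones HSP90AA1, HSPA8 and HSP90AB1, the glycolytic enzymes GAPDH and ENO1, the actin crosslinker FLNA, the nucleolar proteins NPM1 and NCL and the fatty acid synthase FASN also lay among the 25 highest. The long transcripts of FLNA, PLEC and AHNAK were in that set by count, but ranked 134, 379 and 592 per kilobase. Per kilobase PEG10 itself ranked 33 at 2760 TPM, but 92 with the median transcript length and 12 with the union of exons.

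Per kilobase the highest symbol was MT2A, a metallothionein that binds zinc and other metals, at 7323 TPM from 52833 counts. It was followed by ACTB at 6570 TPM and by the ribosomal protein genes RPS18 at 5626 TPM and RPS2 at 5595 TPM. The actin-sequestering thymosin TMSB10 stood at 5065 TPM, and the iron storage chains FTL and FTH1 at 4290 and 3986 TPM. The keratin KRT7 closed the 25 highest at 3001 TPM. MTRNR2L2 also entered this set at 5265 TPM, from 4205 counts on a transcript model of only 87 nt. Reads of ribosomal protein genes, EEF1A1, ACTB and ACTG1 can be split with near-identical copies, and RPL13AP5 and RPL21P28, which are named as pseudogenes, were among the 25 highest per kilobase.

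The promoters of a highly read gene, an intermediate filament gene and 2 airway secretory genes are shown because the genes with and without counts differed in the make-up of this sequence. MT2A (52833 counts) and VIM (23893 counts) encode a metallothionein and vimentin. BPIFA1 (6 counts) and SCGB3A2 (0 counts) encode secreted proteins of differentiated airway epithelium. Each line gives the 250 bases before the transcription start, 5′ to 3′ on the gene's strand, from RefSeq on GRCh38.p14, with CpG dinucleotides in capitals. All 4 lie on the plus strand, at chr16:56608334-56608583 for MT2A, chr10:17227991-17228240 for VIM, chr20:33235746-33235995 for BPIFA1 and chr5:147878461-147878710 for SCGB3A2.
MT2A: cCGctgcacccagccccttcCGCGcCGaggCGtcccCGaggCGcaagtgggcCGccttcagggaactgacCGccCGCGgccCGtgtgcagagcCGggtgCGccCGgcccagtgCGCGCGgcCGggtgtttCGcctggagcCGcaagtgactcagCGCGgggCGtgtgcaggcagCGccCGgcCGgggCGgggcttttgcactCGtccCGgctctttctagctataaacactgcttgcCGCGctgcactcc
VIM: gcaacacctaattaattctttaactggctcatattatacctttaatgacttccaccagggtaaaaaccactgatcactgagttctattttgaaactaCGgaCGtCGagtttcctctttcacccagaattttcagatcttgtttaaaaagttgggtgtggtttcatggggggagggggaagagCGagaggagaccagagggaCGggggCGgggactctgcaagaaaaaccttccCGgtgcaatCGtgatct
BPIFA1: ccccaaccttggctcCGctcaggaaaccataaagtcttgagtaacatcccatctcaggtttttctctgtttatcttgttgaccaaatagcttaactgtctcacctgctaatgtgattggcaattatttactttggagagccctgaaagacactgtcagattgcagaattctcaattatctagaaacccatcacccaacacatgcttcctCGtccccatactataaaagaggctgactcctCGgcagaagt
SCGB3A2: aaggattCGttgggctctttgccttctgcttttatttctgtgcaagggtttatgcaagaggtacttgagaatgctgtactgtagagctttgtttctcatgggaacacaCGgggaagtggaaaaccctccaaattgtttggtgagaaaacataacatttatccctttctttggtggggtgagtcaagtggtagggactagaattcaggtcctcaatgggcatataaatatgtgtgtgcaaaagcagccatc

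The MT2A promoter held 32 CpG dinucleotides, VIM 8, BPIFA1 3 and SCGB3A2 2. VIM thus lay below the lower quartile of 16 in its own class of 10000 counts or more. The first listed promoter of each gene was used, and any other start was not examined. The letters TATAAA stood 45 to 16 bases before the start in MT2A, BPIFA1 and SCGB3A2, and not in the printed VIM sequence. So the printed genes with many counts and those with few did not part by TATAAA. Over 15126 protein-coding symbols with a listed promoter, the median number of CpG dinucleotides in 250 bases was 18.0. It was 4.0 for the 3141 symbols with 0 counts, 9.0 for those with 1 to 15 and 16 for those with 16 to 99. It was 21.0 from 100 to under 1000 counts, and 22.0 both below and above 10000. TATAAA on the sense strand in that window was found in 9.65% of promoters at 0 counts, in 1.05% from 100 to under 1000 counts and in 5.86% at 10000 counts or more, against 3.69% of all. The GC-box letters GGGCGG, searched on both strands, were in 28.1% of promoters at 0 counts and in 68.6% of those of the members, against 57.0% of all. GGGCGG holds a CpG itself, so the latter pair of measures overlap. These are letter matches in a fixed window and say nothing of a factor's binding.

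**Figure D2:**
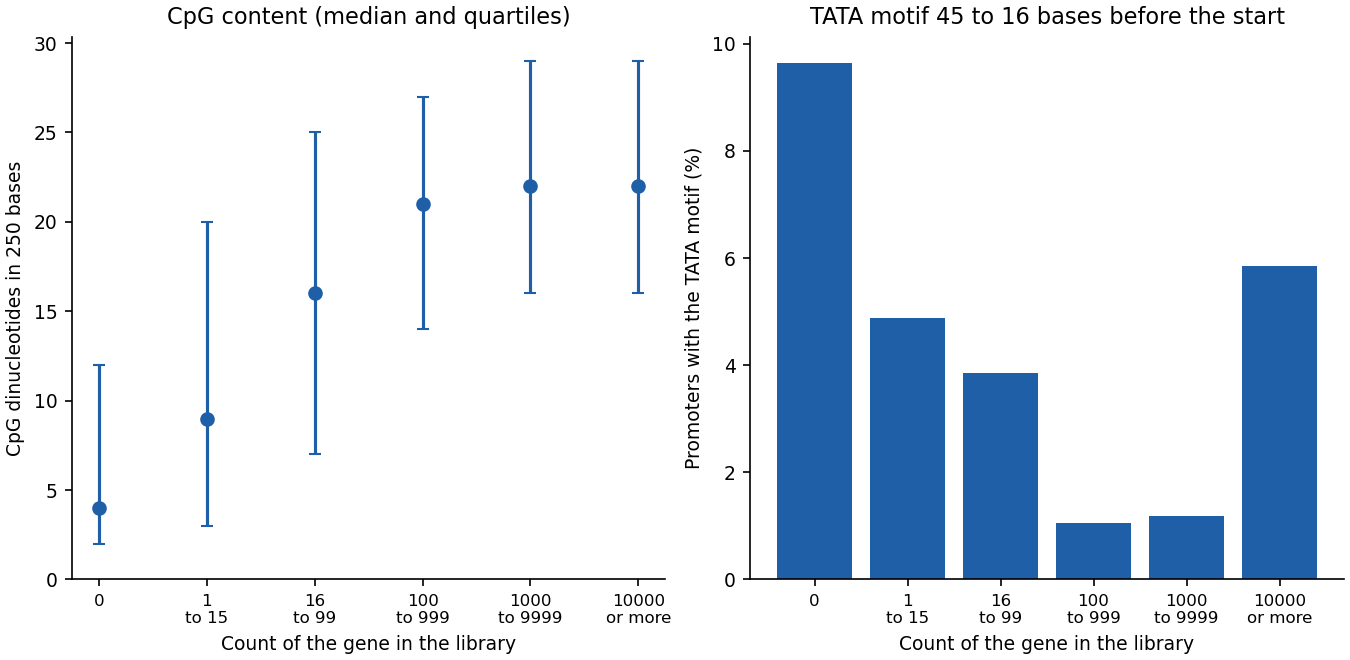
Promoter sequence (250 bases before the start) by the count of the gene in the Control library: left, CpG dinucleotides per promoter as median (points) and quartiles (bars); right, percent of promoters with TATAAA 45 to 16 bases before the start. The median went from 4.0 at 0 counts to 22.0 at 1000 counts or more, while the share with TATAAA was 9.65% at 0 counts and 5.86% at 10000 or more.

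Lineage genes gave a mixed picture against the epithelial label. Of 206 lineage symbols in 12 lists, 91 (44.2%) had at least 16 counts, against 54.1% of all symbols and 64.3% of protein-coding symbols, the class to which nearly all listed genes belong. The median over all symbols with a transcript length, non-coding ones and pseudogenes included, was 2.70 TPM. Only 18.7% of long non-coding RNA symbols reached 16 counts, so 2.70 TPM is not a like reference for these lists. A median over protein-coding symbols alone was not computed. Of 27 pan-epithelial genes 20 were members, with a list median of 14.1 TPM, and of 18 airway basal markers 15 were, with a median of 10.8 TPM. Of 26 mesenchymal genes 17 were members, with a median of 2.64 TPM.

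Of the simple epithelial keratins, KRT7, KRT8 and KRT18 were high and KRT19 was far lower. KRT7 had 48326 counts (1947 CPM, interval 1929 to 1964), KRT8 had 19031 and KRT18, its filament partner, had 16976. At 3001, 851 and 1090 TPM they exceeded all other members of the 55 keratin symbols, of which 12 had at least 16 counts and 36 had 0. KRT19 had 216 counts and 16.9 TPM. The desmosomal plaque genes DSP and PKP2 stood at 51.9 and 83.0 TPM, and the epithelial transcription factor KLF5 at 76.8 TPM. Among the adhesion genes that define epithelium, CDH1 (E-cadherin) had 634 counts and lay at the median of the list, and EPCAM had 51 counts and 3.22 TPM. ESRP2, a splicing regulator of epithelial cells, stood at 30.8 TPM, whereas its paralog ESRP1 stood at 0.0572 TPM with 2 counts. GRHL2, a transcription factor of epithelial identity, had 0 counts, and RAB25 and OVOL1 had 1 each.

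Basal cell genes were uneven. KRT17 stood at 399 TPM, the cell cycle regulator SFN at 188 TPM and the hemidesmosomal integrin ITGB4 at 130 TPM. KRT5, the main basal keratin, was at 50.2 TPM with 1166 counts, while its partner KRT14 was at 2.49 TPM with 38 counts and KRT15 had 0 counts. TP63, the transcription factor that maintains basal cells, had 46 counts (1.85 CPM, interval 1.36 to 2.47). COL17A1, a transmembrane collagen of the hemidesmosome, had 9 counts. Reads of KRT6A (307 counts) and KRT6B (8) can be split between the 2 near-identical genes.

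Genes of differentiated airway cells differed by list. Of 18 club and goblet markers only WFDC2, a secreted protease inhibitor family protein, was a member, with 180 counts. SCGB1A1 and SCGB3A1, the club cell secretoglobins, had 0 counts, the gel-forming mucins MUC5B and MUC5AC had 13 and 9, and SPDEF, the goblet transcription factor, had 1. Of 20 ciliated cell markers 9 were members, led by the centrin CETN2, a centriole gene of most cells, at 257 TPM. FOXJ1, the transcription factor of motile cilia, and the axonemal genes DNAI2, DNAH9 and TEKT1 had 0 counts, although MCIDAS and CCNO, which act in making multiple centrioles, had 52 and 202. Rare airway markers gave 2 members of 14, with 0 counts for FOXI1, the ionocyte transcription factor, and 2 for POU2F3. Alveolar markers gave 6 of 14, led by ETV5 with 995 counts, and the surfactant genes SFTPB and SFTPC had 4 and 0.

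Mesenchymal genes were uneven as well. FN1 (fibronectin) had 31188 counts and 382 TPM, VIM 23893 counts and 1219 TPM, and SPARC 5431 counts and 160 TPM. The collagen crosslinking enzyme LOX stood at 93.7 TPM and the surface protein THY1 at 52.9 TPM. Other genes of the list were low or listed at 0. The partner collagen chains COL1A1 and COL1A2 stood at 5.36 and 0.121 TPM, DCN had 5 counts, PDGFRA had 3, and COL3A1, LUM and POSTN had 0. The smooth muscle genes ACTA2, TAGLN and CNN1 had 64, 41 and 2 counts. Of 8 transcription factors that drive epithelial to mesenchymal transition 7 were members, with TWIST1 at 41.3 TPM, ZEB1 at 16.4 TPM and ZEB2 at 5.09 TPM, and with SNAI1 and SNAI2 at 2.65 and 1.93 TPM.

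Transcription factors of lung and foregut gave 12 members of 23. NKX2-1, which specifies lung epithelium, had 0 counts, while SOX2 of the proximal airway had 2 and FOXA2 had 1. FOXA1 had 721 counts and GATA6 had 207. The inhibitor of differentiation ID1 was the highest of the list at 239 TPM. Of the HOX clusters, which encode position along the body, only HOXB had members: HOXB2, HOXB3 and HOXB4 had 276, 272 and 228 counts and HOXB7 had 38, while 0 of 11 HOXA, 0 of 9 HOXC and 0 of 9 HOXD symbols reached the minimum.

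Markers of other cell types were nearly empty. Of 20 leukocyte markers, 12 had 0 counts, PTPRC (CD45) and SPI1 among them, and only CD68, a lysosomal glycoprotein that other cells also make, reached the minimum with 350. Of 10 endothelial markers only KDR reached it, with 23 counts, and PECAM1 had 8. Of 8 erythroid markers 0 reached it, with 1 count on HBA1 in all. The summed level was 21.9 TPM for leukocyte, 0.946 TPM for endothelial and 0.189 TPM for erythroid markers. It was 5431 TPM for the pan-epithelial list, of which KRT7 gave 3001 TPM. For the mesenchymal list it was 2047 TPM, of which VIM gave 1219 TPM. The lists differ in length, and such sums follow their highest genes. Families of other tissues were nearly empty as well: 1 of 396 olfactory receptor symbols (OR2A4, 22 counts) and 0 of 93 keratin-associated proteins reached 16 counts. The beta-defensins, antimicrobial peptides that epithelia also make, had 0 of 34 symbols at the minimum.

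**Figure D3:**
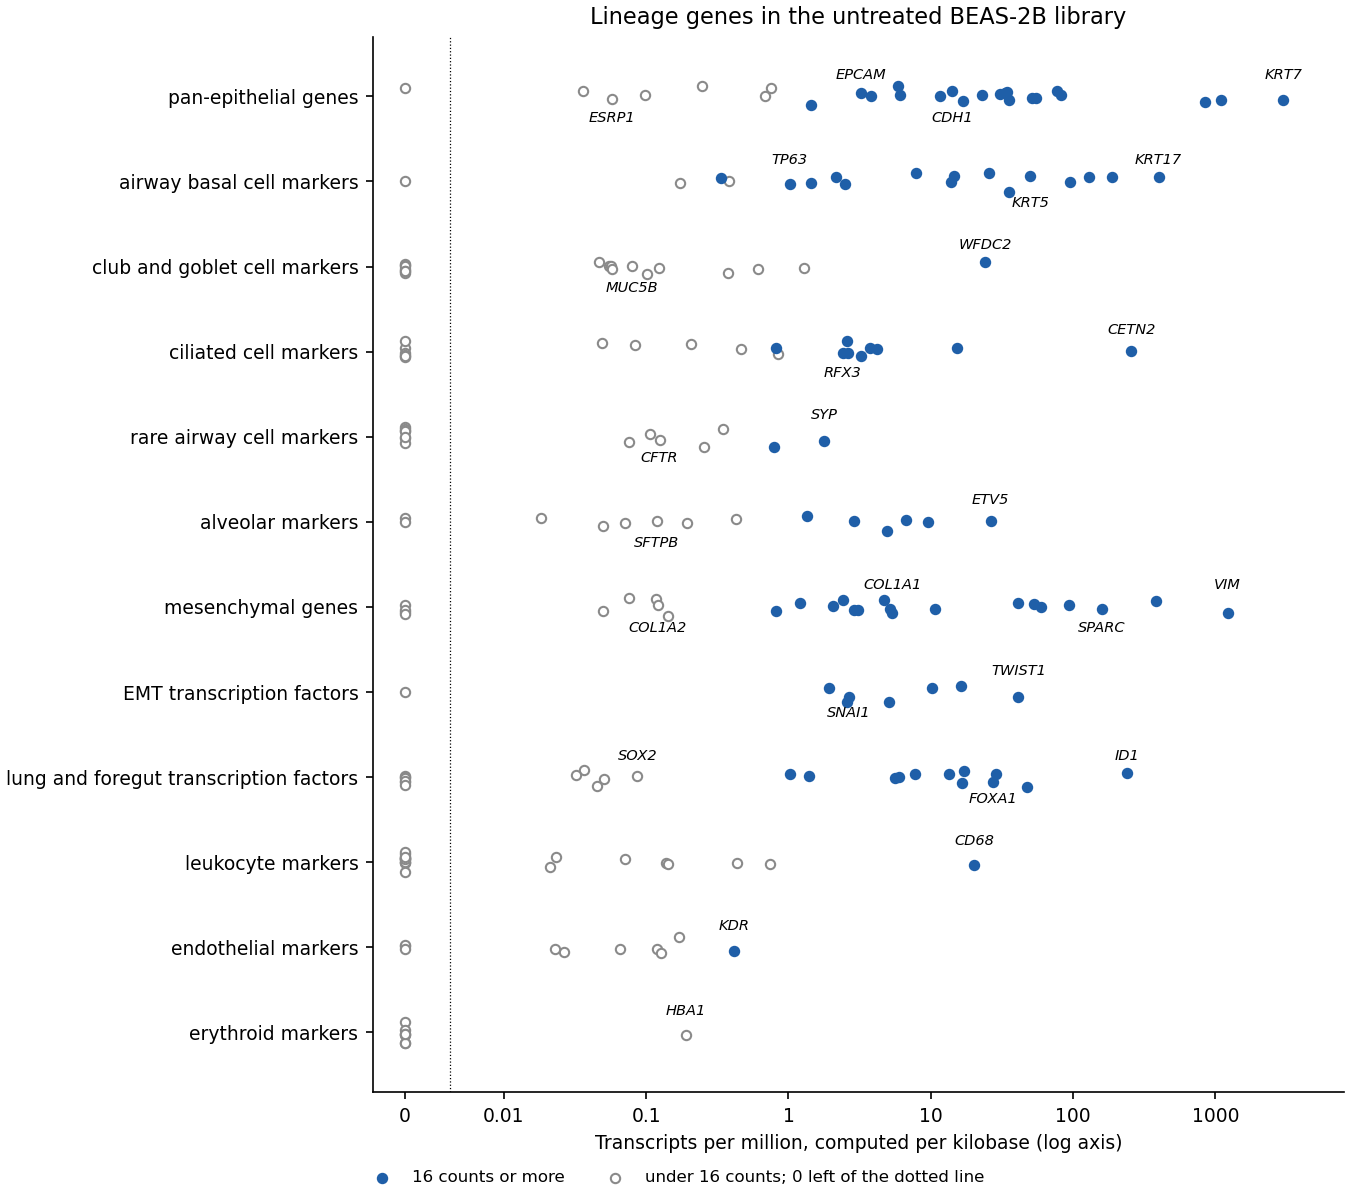
TPM (log axis) of each member of the 12 lineage lists in the Control library, 1 point per gene. Filled points had 16 counts or more, open points had fewer, and points left of the dotted line had 0. Pan-epithelial genes reached from 0 to KRT7 at 3001 TPM, mesenchymal genes from 0 to VIM at 1219 TPM, and club and goblet markers had 1 filled point, WFDC2.

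Receptors formed the second group of genes, with 141 of 245 listed symbols (57.6%) at 16 counts or more, against 54.1% of all and 64.3% of protein-coding symbols. Cytokine receptors gave 27 members of 37. The shared signaling chain of the IL-6 family, IL6ST, had 15501 counts and 186 TPM, with OSMR at 107 TPM, IL6R at 34.5 TPM and LIFR at 28.5 TPM. Both chains of the interferon-gamma receptor, IFNGR1 and IFNGR2, stood at 68.0 and 74.4 TPM, and the type I interferon chains IFNAR1 and IFNAR2 at 39.1 and 15.2 TPM. The IL-4 and IL-13 chains IL4R and IL13RA1 were at 43.0 and 45.6 TPM. IL1R1, the signaling IL-1 receptor, had 414 counts, whereas the decoy IL1R2 had 0. CSF2RB, the signaling chain for GM-CSF, had 0 counts.

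TNF receptors were uneven. TNFRSF1A, the main receptor of TNF, had 4123 counts and 202 TPM, while TNFRSF1B had 19 counts (0.765 CPM, interval 0.461 to 1.2). LTBR stood at 180 TPM, the TWEAK receptor TNFRSF12A at 273 TPM and the death receptors TNFRSF10B and FAS at 97.4 and 38.8 TPM. In all, 14 of 21 symbols of the family had at least 16 counts. Of 22 chemokine receptors only ACKR1, an atypical receptor that binds chemokines without signaling, with 1321 counts, and CXCR4, with 79, reached the minimum. CXCR1 and CXCR2, the receptors of CXCL8, had 0 counts.

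Growth factor receptor kinases gave 22 members of 33. AXL, the receptor of GAS6, was highest with 9614 counts and 221 TPM, followed by EPHA2 at 101 TPM and RYK at 92.5 TPM. ERBB2, MET and EGFR stood at 63.7, 59.1 and 33.2 TPM, ERBB3 had 202 counts and ERBB4 had 0. The fibroblast-type receptors PDGFRB and PDGFRA had 127 and 3 counts. Of 14 TGF-beta family receptors 10 were members, and TGFBR2, the ligand-binding chain, with 21029 counts and 496 TPM exceeded its partner TGFBR1 at 23.3 TPM.

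Receptors for airway drugs and mediators gave 25 members of 56 and a list median of 0.342 TPM. The lysophosphatidic acid receptor LPAR1 led at 67.8 TPM, followed by the adenosine receptor ADORA2B at 39.8 TPM, the sphingosine phosphate receptor S1PR3 at 39.1 TPM and the endothelin receptor EDNRA at 32.2 TPM. The muscarinic receptor CHRM3 had 83 counts. The histamine receptor HRH1 had 419 counts, and the cysteinyl leukotriene receptors CYSLTR1 and CYSLTR2 had 0. Of 46 nuclear receptors 30 were members. NR3C1, the glucocorticoid receptor, had 4051 counts and 60.6 TPM, while NR3C2, the mineralocorticoid receptor, had 4 counts. AHR, the sensor of aryl hydrocarbons, stood at 51.7 TPM and RXRA, the partner of many nuclear receptors, at 154 TPM. The estrogen receptors ESR1 and ESR2 had 2 and 10 counts, and PGR had 0.

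Of 18 genes used by respiratory viruses for entry, 12 were members. ICAM1, used by rhinoviruses, had 3256 counts, and CXADR, used by adenoviruses, had 986. DPP4 and ANPEP, both used by coronaviruses, had 247 and 1959 counts. The proteases TMPRSS2 and TMPRSS4 had 0 counts, while FURIN and CTSL, also proteases, stood at 43.3 and 105 TPM.

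Innate sensing was the third group, with 121 of 183 symbols (66.1%) at 16 counts or more, close to the 64.3% of protein-coding symbols. Of 10 Toll-like receptors 5 were members. TLR4, the receptor of LPS, had 1818 counts (73.2 CPM, interval 69.9 to 76.7) and 15.4 TPM. TLR3, which binds double-stranded RNA, had 359 counts and 6.50 TPM, and TLR2, which binds bacterial lipoproteins, had 240 counts and 6.23 TPM. TLR6 had 97 counts and the flagellin receptor TLR5 had 17 (0.685 CPM, interval 0.399 to 1.1), just inside the minimum. TLR1 had 10 counts, and the endosomal receptors TLR7, TLR8 and TLR9 had 3, 0 and 2.

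The LPS receptor was represented unevenly in its parts. CD14, which hands LPS to the receptor, had 507 counts (20.4 CPM, interval 18.7 to 22.3) and 29.3 TPM. LY96, which encodes the MD-2 subunit that binds LPS within the complex, had 1 count (0.0403 CPM, interval 0.00102 to 0.224). LBP, the serum protein that extracts LPS, had 3 counts. Of the adaptors, MYD88 stood at 37.0 TPM, TICAM1 at 14.2 TPM and TIRAP at 9.73 TPM. TICAM2 was listed at 0 counts, and reads in its region can be assigned to the read-through symbol that joins it to TMED7. The kinases IRAK1 and IRAK4 were at 334 and 8.37 TPM, and IRAK3, an inhibitor of the pathway, at 30.6 TPM. HSP90B1, the chaperone that folds Toll-like receptors along with many other secreted proteins, was the highest of the list at 1108 TPM. In all, 15 of the 20 symbols in the list had at least 16 counts.

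All 27 NF-kB and IKK components were members, with a list median of 37.2 TPM. The subunits RELA and NFKB1 stood at 69.4 and 58.5 TPM, NFKB2 at 37.2 TPM, RELB at 24.6 TPM and REL at 5.06 TPM. The inhibitor NFKBIA was at 118 TPM and TNFAIP3, a deubiquitinase that ends the signal, at 13.2 TPM. The kinase complex genes CHUK, IKBKB and IKBKG lay at 44.8, 28.5 and 69.1 TPM. The highest was TNIP1, a ubiquitin-binding inhibitor of the pathway, at 426 TPM, and the lowest was TRAF1 with 66 counts and 1.14 TPM.

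Sensors inside the cell differed by class. Of 24 cytosolic RNA and DNA sensors and their adaptors 23 were members. IFIH1 (MDA5) and DDX58 (RIG-I) stood at 19.5 and 13.7 TPM, their adaptor MAVS at 75 TPM, MB21D1 (cGAS) at 17.5 TPM and TMEM173 (STING) at 61.8 TPM. Only ZBP1, a sensor of left-handed nucleic acid, had 0 counts. Of 29 NOD-like receptor and inflammasome genes 19 were members. The LPS-sensing caspase CASP4 was at 102 TPM, CASP1 at 56.3 TPM and the pore-forming GSDMD at 57.7 TPM. The adaptor PYCARD (ASC) had 177 counts and NOD1 had 416, whereas NLRP3, NOD2 and AIM2 had 0. Of the inflammasome substrates, IL18 had 1458 counts and 138 TPM and IL1B had 3 counts.

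Phagocytic and lectin receptors gave 11 members of 36, led by the secreted galectins LGALS1 and LGALS3 at 1042 and 201 TPM and the lysosomal SCARB2 at 104 TPM. MARCO, CD163, CD209 and FPR1, all receptors of macrophages or neutrophils, had 0 counts. Antigen presentation was divided by class. Of 18 MHC class I pathway genes 17 were members, with B2M at 1224 TPM and the peptide transporters TAP1 and TAP2 at 82.0 and 58.5 TPM. Of 19 interferon and MHC class II genes 4 were members, with 58 counts on HLA-DPB1, 50 on CD74 and 0 on HLA-DRA. IFNB1 and IFNL1 had 0 counts and IFNE, an epithelial interferon, had 61. Reads of HLA genes can be split between similar loci.

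**Figure D4:**
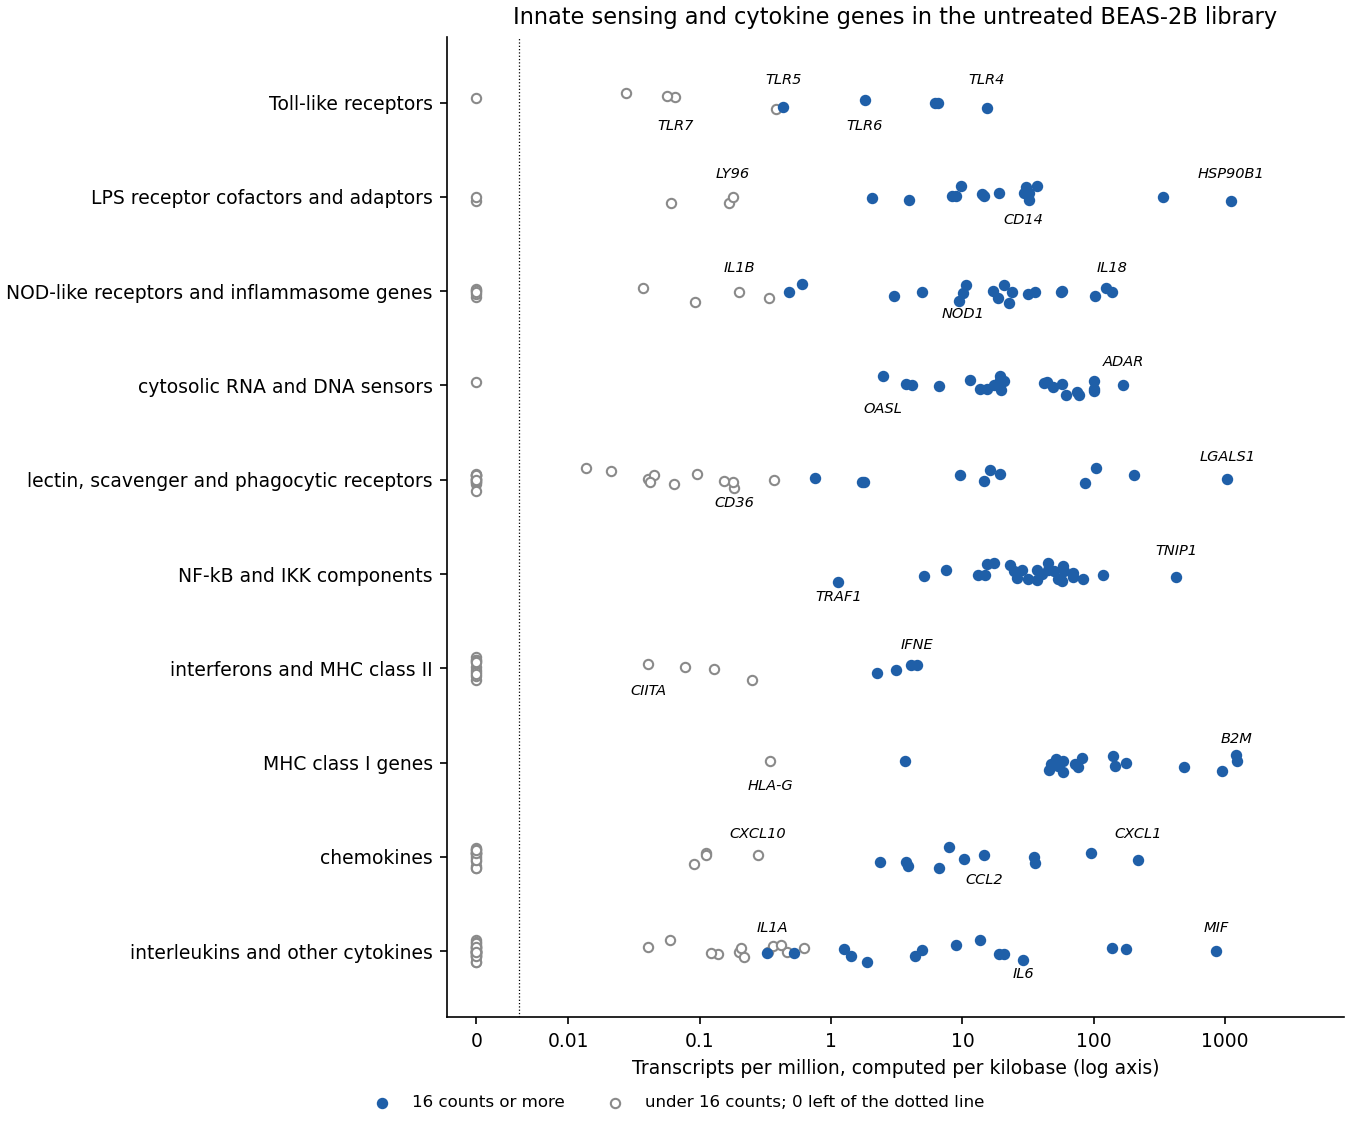
TPM (log axis) of each member of the 8 innate sensing lists, the chemokines and the interleukins in the Control library, 1 point per gene. Filled points had 16 counts or more, open points had fewer, and points left of the dotted line had 0. TLR4 lay at 15.4 TPM and CD14 at 29.3 TPM, while LY96 lay at 0.179 TPM with 1 count.

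Secreted products and the machinery that makes them were the fourth group, with 221 of 377 symbols (58.6%) at 16 counts or more, against 54.1% of all and 64.3% of protein-coding symbols. All 36 genes of translocation and folding in the endoplasmic reticulum were members, with a list median of 235 TPM and with CALR at 1539 TPM, CANX at 983 TPM and HSPA5 at 640 TPM. Mucins gave 5 members of 20 and a list median of 0.0330 TPM. MUC1, a membrane mucin, had 540 counts (21.8 CPM) and no other mucin had more than 38. MUC4 had 1 count and MUC16 had 0.

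Antimicrobial and defence proteins gave 14 members of 30. SAA1, an acute-phase serum amyloid, had 15431 counts and 2490 TPM, and its near-identical copy SAA2, with which reads can be split, had 1228. The protease inhibitor SLPI stood at 342 TPM, S100A9 at 211 TPM, the chitinase-like CHI3L1 at 198 TPM and S100A8, the partner of S100A9, at 18.1 TPM. LTF (lactoferrin), CAMP (cathelicidin) and DEFB4A had 0 counts, and LYZ (lysozyme) had 3.

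Complement and coagulation genes gave 23 members of 29. C3, the central complement protein, had 36779 counts (1482 CPM, interval 1467 to 1497) and 761 TPM, which was rank 35 by count. Its rank per kilobase was 160 with the longest transcript and 12 with the median length. The complement protease C1R was at 171 TPM and factor B (CFB) at 80.6 TPM, and the membrane protectors CD46 and CD59 at 119 and 90.4 TPM. Tissue factor (F3), which starts coagulation, was at 144 TPM and its inhibitor TFPI at 135 TPM.

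Chemokines gave 11 members of 31 and a list median of 0 TPM. CXCL1, CXCL8 and CXCL2, which attract neutrophils, had 2203, 1502 and 393 counts, that is 219, 96.0 and 35.2 TPM. CCL2, CCL20 and CCL5 had 99, 51 and 47 counts. CXCL10 had 3 counts, and CXCL9, CXCL11, CCL11 and CX3CL1 had 0. Reads can be split between CXCL1, CXCL2 and CXCL3, which are similar in sequence.

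Interleukins and other cytokines gave 15 members of 53, with 26 at 0 counts. MIF had 7392 counts and 858 TPM, CSF1 (a macrophage growth factor) 6809 counts and 176 TPM, and LIF 694 counts. IL6 had 405 counts (16.3 CPM, interval 14.8 to 18.0) and CSF3 had 319. The epithelial alarmins were low, with 0 counts on IL33 and IL25 and 5 on TSLP. TNF had 0 counts, IL1A had 7 and CSF2 had 1.

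Growth factors gave 33 members of 55. CTGF and CYR61, matricellular targets of YAP signaling, stood at 598 and 208 TPM, and the EGFR ligand EREG at 109 TPM, above AREG at 5.18 TPM and HBEGF at 2.37 TPM. EGF had 0 counts. TGFB1 and TGFB2 were at 64.0 and 18.9 TPM, VEGFA at 42.4 TPM and the WNT inhibitor DKK1 at 81.2 TPM.

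Matrix proteins gave 44 members of 53 and 0.584% of all counts. After FN1 came THBS1 at 334 TPM and the laminin chain LAMB1 at 259 TPM. The chains of laminin-511, LAMA5, LAMB1 and LAMC1, stood at 108, 259 and 102 TPM, while LAMA3 and LAMB3, chains of the laminin beneath basal cells, stood at 11.3 and 0.81 TPM. Of 40 matrix proteases and inhibitors, listed together, 23 were members. The inhibitors TIMP1 and TIMP2 stood at 619 and 293 TPM and the protease MMP14 at 46.0 TPM, while MMP9 had 3 counts and MMP1, MMP7 and MMP10 had 0. Of 7 IGF-binding proteins 5 were members, led by IGFBP4 at 412 TPM.

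Ion and water transport gave 14 members of 25. The sodium pump chain ATP1B1 was at 79.9 TPM. The 3 chains of the epithelial sodium channel diverged, with SCNN1A at 7473 counts and 234 TPM but SCNN1B and SCNN1G at 11 and 7 counts, or 0.461 and 0.217 TPM. CFTR, the chloride channel of airway epithelium, had 7 counts (0.282 CPM, interval 0.113 to 0.581), and the calcium-activated channel ANO1 had 0.

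Barrier and identity genes gave 41 of 65 symbols (63.1%) at 16 counts or more, close to the 64.3% of protein-coding symbols. Of 29 tight junction genes 19 were members, with a list median of 4.26 TPM. TJP1, which encodes ZO-1, the protein from which the PDZ peptide of the study derives, had 4417 counts and 60.5 TPM. Of 24 claudins 7 were members. CLDN1, CLDN12, CLDN11 and CLDN7 had 1049, 775, 664 and 200 counts, while CLDN4 and CLDN3 had 14 and 9. OCLN (occludin) was at 11.2 TPM. Of 36 integrin and adhesion genes 22 were members, with the laminin receptor chains ITGA3 and ITGB1 at 479 and 596 TPM. VCAM1, an adhesion molecule induced on activated cells, had 1 count, and ITGB6, an epithelial integrin of injury, had 0.

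Genes of cell state were the most complete, with 157 of 176 symbols (89.2%) at 16 counts or more, against 64.3% of protein-coding symbols. Of 27 proliferation genes 26 were members, with MKI67 at 30187 counts and 259 TPM, TOP2A at 386 TPM, CCNB1 at 525 TPM and PCNA at 648 TPM. CCND2 alone, with 7 counts, was below the minimum, against 91.6 TPM for CCND3 and 39.1 TPM for CCND1. All 22 checkpoint and RB pathway genes were members. CDKN2A, an inhibitor of the cell cycle upstream of RB, stood at 450 TPM, against 69.8 TPM for RB1 and 98.9 TPM for the cyclin kinase inhibitor CDKN1A.

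All 19 glycolytic genes were members, with a list median of 338 TPM, and so were all 43 cytoskeleton genes, with a median of 533 TPM. Of 37 antioxidant genes 35 were members. Beside MT2A, the metallothioneins MT1X and MT1E stood at 2857 and 1492 TPM, TXN (thioredoxin) at 972 TPM, NQO1 at 198 TPM and HMOX1 at 48.1 TPM, while the secreted SOD3 had 0 counts. Reads of metallothionein genes can be split between copies. Of 28 xenobiotic genes 12 were members. CYP1B1, a target of AHR, had 13857 counts and 288 TPM, whereas CYP1A1, another AHR target, had 8 counts and 0.325 TPM, and CYP2F1 and CYP2A13 of the airway had 0.

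Translation took a large part of the counts. Of 86 cytosolic ribosomal protein symbols 83 were members and they held 5.89% of all counts, while all 77 mitochondrial ribosomal protein symbols were members with 0.482%. The 3 others were listed at 0. No mitochondrially encoded gene was listed, so their share was not measured here.

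**Figure D5:**
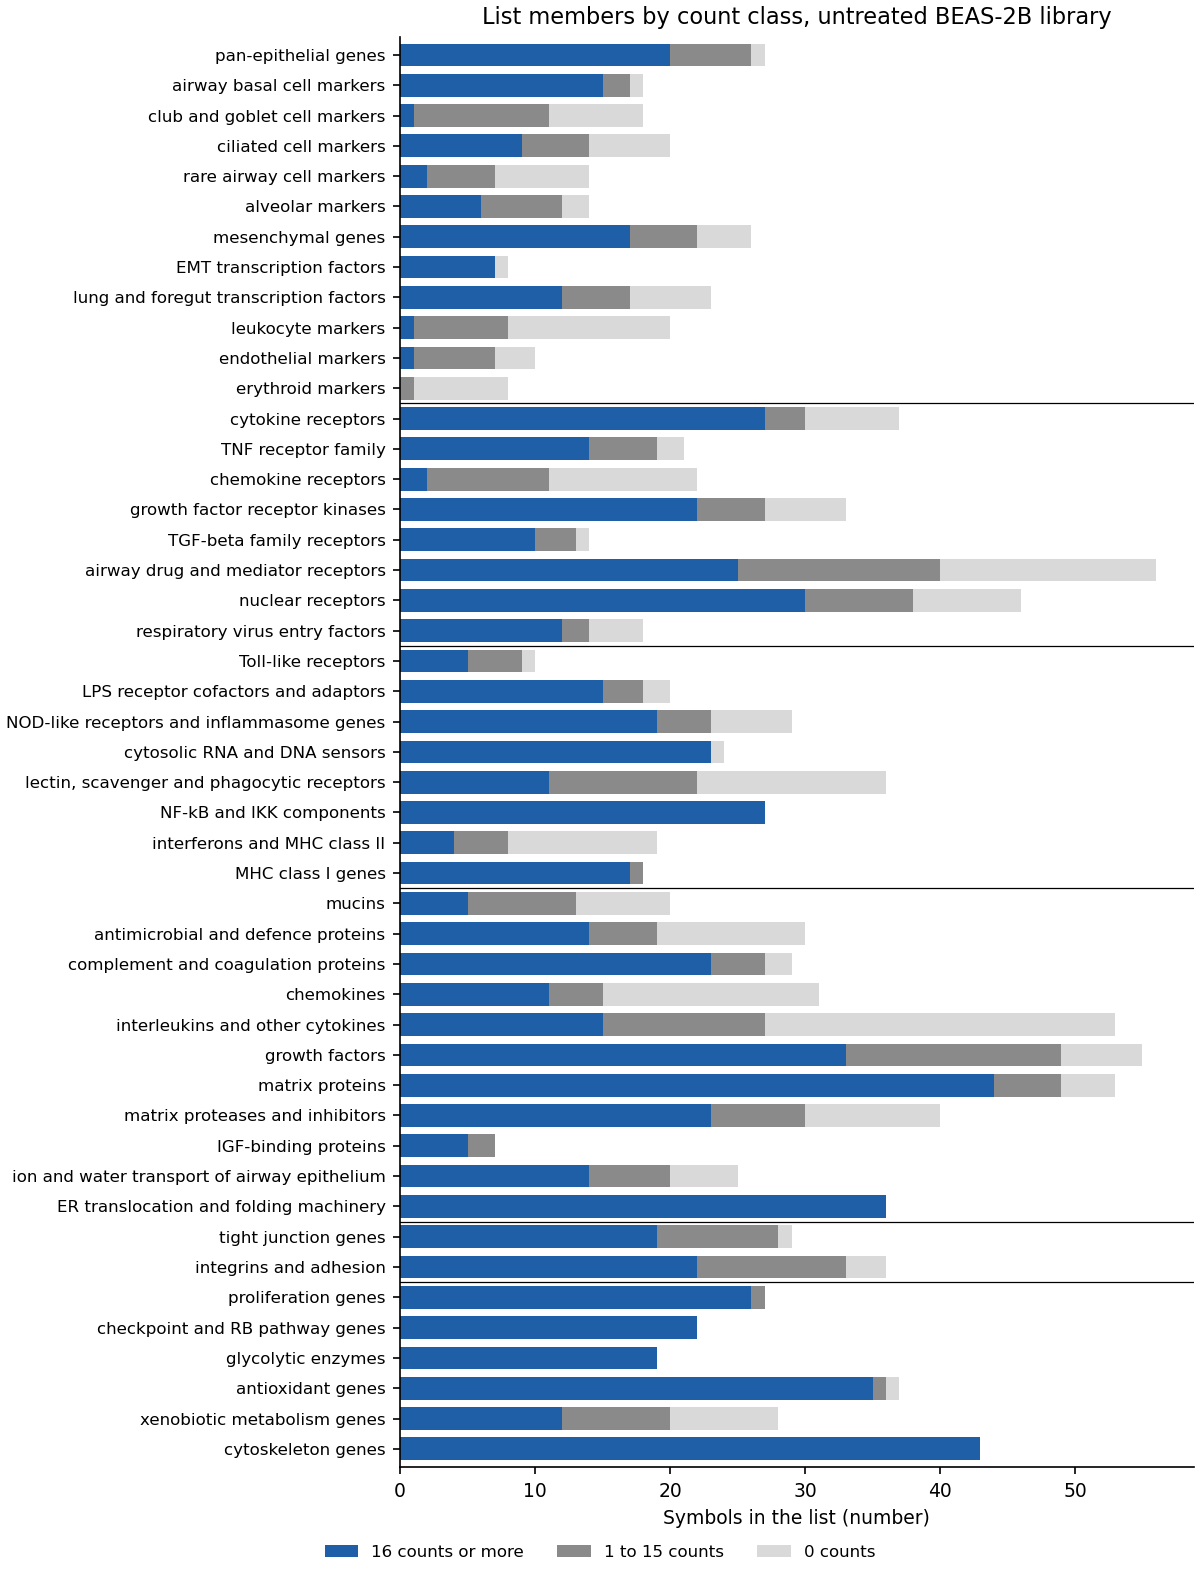
Number of symbols with 16 counts or more, 1 to 15 counts and 0 counts in each of the 47 lists in the Control library, with lines between the 6 groups. NF-kB, endoplasmic reticulum, checkpoint and RB, glycolytic and cytoskeleton lists were filled, while interleukins (15 of 53), leukocyte markers (1 of 20) and club and goblet markers (1 of 18) were mostly below the minimum.

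A few members of the lists stood at the edge of the minimum. Listed symbols with 13 or 14 counts, just outside, were PRSS8, ITGB7, MUC5B, MMP11, TNFRSF11B, P2RY2, L1CAM, CLDN4 and COL6A3. Just inside with 16 counts were EMILIN1, BDNF, NR4A2 and C5AR1, and TLR5, EPGN, S100A4, DSG3 and TREM2 followed with 17. The interval at 13 counts ran from 0.279 to 0.896 CPM and that at 17 counts from 0.399 to 1.1 CPM, so these 2 sets overlapped within counting error. Over all 47 lists, 750 of 1213 symbols (61.8%) had at least 16 counts, against 64.3% of protein-coding symbols, 221 had 1 to 15 and 242 had 0.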

How the data were processed

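RNA of untreated BEAS-2B cells was sequenced from poly(A)-selected RNA as paired-end, directional libraries. The authors trimmed and mapped the reads, with TopHat and hg19 per the submitters' processing notes, and deposited raw counts per gene symbol. The counting tool, its annotation and its use of strand are not given in the sources used here, so antisense and overlapping genes are uncertain. Counts of the Control library (24823347) were divided by their total for CPM. TPM used the longest protein-coding transcript of GENCODE 29, or the longest of any type where a gene had no protein-coding one. This gave a length for 22550 symbols, and for 97.7% of the members. Symbols that carry an older name were matched through RefSeq synonyms. Exact 95% intervals and a floor of 3 counts reflect counting error alone, as reads lacking molecular identifiers can be copies of 1 molecule. Some list members are not reported here. No test was run, because there is 1 library per group. The gene lists and families (47 and 20) were written from general knowledge, with earlier results of these data known, and so was the choice of members. Any list or family member could be named, beside the 25 highest symbols by count and per kilobase, and the 4 printed promoters were chosen after their genes' counts were seen. Of 18965 protein-coding symbols, 15126 had a promoter, and the first listed was used. Gene levels at other minimum counts, scalings (edgeR 4.0.16 and DESeq2 1.42.0, for size factors only) and transcript lengths were computed. Python 3.11.15, pandas 2.3.3, scipy 1.17.1 and R 4.3.3 were used, and the interval step was tested on simulated data.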

Additional observations from a re-analysis of the deposited data

How the results depend on the processing

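With a minimum of 1, 8, 32 or 100 counts in place of 16, the number of symbols ran from 17161 to 11018 and that of list entries kept within 1.5 times of the main number. Leaving out read-through symbols gave 13162 symbols. Ranked per kilobase, the 100 highest symbols took 25.4% of the per-kilobase total, against 15.7% of the counts. The median over the list members with 16 counts or more was 42.9 CPM. It was 39.97 CPM with DESeq2 size factors and 46.1 CPM with the 25 highest symbols left out of the total. Of the 25 highest symbols per kilobase, 16 stayed with the median transcript length, 18 with the exon union, 13 by raw count and 24 without transcripts under 250 nt, an alternative chosen after seeing the data. C3 ranked 160 per kilobase with the longest transcript and 12 with the median length. PEG10 ranked 33, 92 with the median length and 12 with the exon union. SAA1 ranked 39, 94 and 16 for the same lengths, and VIM 95, 148 and 147. Among 12 named genes, 15 of 48 ranks under other length choices or raw counts moved by over 1.5 times. Under other scalings, 30 of 36 CPM values of these genes fell outside the counting interval. The printed intervals thus leave out the choice of scaling. TLR4, at 73.2 CPM by total count, ran from 68.3 to 78.8 CPM. No mitochondrially encoded gene is listed, so every value is already one without them. No paired analysis was possible because each group has 1 library and the result comes from no test. Depth limits genes near 16 counts, whose interval spans over 2-fold.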
